A study of Mus musculus with 10 samples.

Results

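Chromatin remodellers are ATP-driven machines that slide, evict or exchange nucleosomes. This report describes the catalytic ATPases and subunits of the SWI/SNF (BAF), ISWI and INO80 families and of a few related SNF2-type enzymes, all outside the CHD family to which CHD8 belongs. The genes were chosen by name from a list of 47 symbols, drawn up with earlier results of these data known, and 46 of them were found among the 13661 genes of the authors' deposited table; Dpf3 was not analysed here. The study compared the cortex of 5 wild-type (WT) male mice with that of 5 males carrying a Chd8 knock-in (KI) allele, all at 8 weeks of age, as a model of duplication of Chd8. How the allele was made, which promoter drives it and the strain of the mice are not stated in the labels, nor whether littermates were used.

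BAF complexes are built around 1 of 2 related ATPases, BRM (Smarca2) or BRG1 (Smarca4), and exchange some subunits as neural progenitors become neurons. In that switch, the actin-related subunit Actl6a is replaced by Actl6b, the zinc finger subunits Phf10 and Dpf2 give way to Dpf1 and Dpf3, and Ss18 is replaced by Ss18l1 (CREST). The assemblies with the neuronal subunits are known as neuronal BAF and are needed for dendrite growth and activity-dependent gene expression. ISWI enzymes space nucleosomes, and INO80 family enzymes move nucleosomes or deposit the histone variant H2A.Z in them.

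The values are those of the authors' own DESeq2 fit: for each gene a mean normalised count over all 10 libraries, a log2 fold change with its standard error (SE), and a p-value before and after Benjamini-Hochberg adjustment over all genes. No counts of single libraries were used, so that depth per library, values per animal and the spread within a genotype cannot be shown. The columns carry no sign convention. Fold changes are given as KI over WT because Chd8, the targeted gene, is then the higher one, with a fold change of 1.40 (95% interval 1.22 to 1.61, adjusted p = 0.0044, DESeq2) in the authors' deposited table. Among all genes tested, 10 of 13660 passed an adjusted p of 0.05. All 6 cortical excitatory neuron markers reported here (Slc17a7, Tbr1, Cux2, Neurod6, Camk2a and Nrgn) were in the table, with mean normalised counts from 1464 to 62823.

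No remodeller gene passed the threshold. Of the 46 members, 0 had an adjusted p under 0.05 in the authors' deposited table (DESeq2), against 0.0732% of all genes. At an unadjusted p under 0.05 the count was also 0 of 46, against 3.22% of all genes; by direction it was 0 higher (1.34% of all genes) and 0 lower (1.88%). The deposited Wald scores had a robust SD of 0.855 over all genes. With scores divided by it, 3 of the 46 members (Bcl7a, Arid2 and Phf10) were under 0.05, or 6.52% against 6.21% of all genes. The unadjusted p-values of the members ran from 0.0521 to 0.952, and every 95% interval held 0. The log2 fold changes ran from -0.12 to 0.27 with a median of 0.055, which is 1.04-fold, beside a median of 0.0025 over all genes tested. Of the members, 32 stood above 0 and 14 below, or 69.6% above 0 against 51.6% of all genes. With the trend of fold change on transcript length removed the median was 0.032, 31 members were above 0 (49.7% of all genes were) and 0 were under an unadjusted p of 0.05 (2.99% of all genes were). The mean weighted by the inverse squared SE was 0.031. These shares and medians describe the list and were not tested.

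The intervals set the size of difference that these data leave room for. For 28 of the 46 members (60.9%) the whole 95% interval lay within 0.25 of 0 on the log2 scale, against 54.9% of all genes. For 44 members it ended below the log2 fold change of 0.49 measured for Chd8, as it did for 93.1% of all genes. The 2 exceptions were Cecr2 and Hells, whose upper bounds were 0.62 and 0.59. The 3 members with a mean normalised count under 200 were Hells, Cecr2 and Baz1a, and their SEs of 0.23, 0.18 and 0.27 were among the widest.

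**Figure D1:**
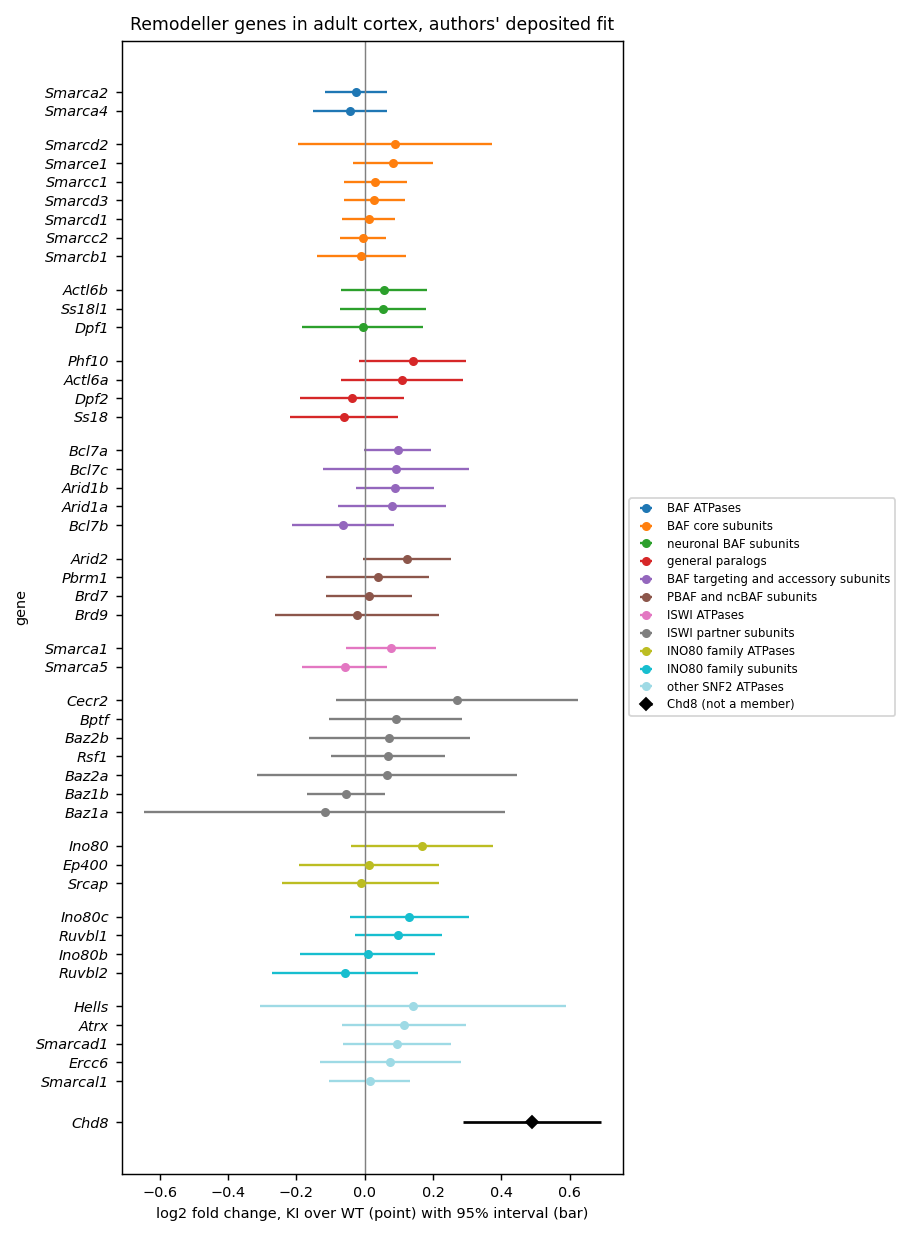
Log2 fold change of KI over WT (points, x axis) with its 95% interval (bars) for the 46 remodeller genes, coloured by role, and for Chd8 (black diamond), all from the authors' deposited table. Every member's interval crosses 0, whereas that of Chd8 runs from 0.29 to 0.69.

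Both BAF ATPases were abundant, and neither passed the test. Smarca2 (chromosome 19, 26605073 to 26778321, RefSeq annotation of GRCm38.p6, as for all positions here) had a mean normalised count of 5316 and a log2 fold change of -0.026 (SE 0.047, unadjusted p = 0.57, DESeq2) in the authors' deposited table. Smarca4 (chromosome 9, 21616106 to 21704230) had a mean normalised count of 3189 and a log2 fold change of -0.043 (SE 0.055, unadjusted p = 0.433 by DESeq2) there. The intervals bound these differences between 0.922 and 1.05 of WT for Smarca2 and between 0.901 and 1.05 for Smarca4. Per kilobase of the longest transcript the levels were 898 for Smarca2 and 500.1 for Smarca4, a ratio of 1.80. It became 11.8 with the median coding transcript as the length. That median is 834 bases for Smarca2, against a longest transcript of 5921, and 5879.5 bases for Smarca4. The ratio of 11.8 thus depends on short annotated transcripts of Smarca2.

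The subunits listed here as the BAF core included the most precisely measured member. Smarcc2, the BAF170 scaffold, had the highest level of all members per kilobase of the longest transcript, 1319 normalised counts. Its log2 fold change was -0.0043 (SE 0.034, 95% interval -0.071 to 0.063) in the authors' deposited table. With the median coding transcript as the length, Smarca2 stood highest at 6374. Smarcd1 at 4804, Actl6b at 3071 and Atrx at 2697 also stood above Smarcc2 at 1405 on that length. Smarcc1 (BAF155), the paralog of Smarcc2, had a log2 fold change of 0.030 (SE 0.047) in the same authors' deposited table. Smarcb1, the SNF5 subunit, stood at -0.010 (SE 0.066) there. The 3 BAF60 paralogs differed widely in level, with Smarcd1 at 1034, Smarcd3 at 410.4 and Smarcd2 at 94.8 normalised counts per kilobase. Their log2 fold changes in the authors' deposited table were 0.012 (SE 0.040), 0.028 (SE 0.045) and 0.089 (SE 0.15). Smarce1 (BAF57) stood at 0.083 (SE 0.060) there. In GENCODE M21, 48.2% of the exonic bases of Smarcd3 are shared with Chpf2 on the opposite strand, and whether reads were counted by strand is not stated, so reads from those bases may belong to either gene.

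The neuronal BAF subunits were at or above the level of their general paralogs per length, and no gene of either set passed the test between genotypes. Actl6b, the neuronal actin-related subunit, lies on chromosome 5 (137553361 to 137569582) and Actl6a on chromosome 3 (32708546 to 32726973). Dpf1 lies on chromosome 7 (29303952 to 29317592) and Dpf2 on chromosome 19 (5896516 to 5912871). The bases upstream of these paired genes are shown because they lie before the starts of the paralogs whose levels and changes are compared next. They were read from the RefSeq promoter table of GRCm38.p6, 5′ to 3′ on the gene's strand, and end before the gene's RefSeq span and before the first UTR base annotated in GENCODE M21, which leaves 65 bases for Actl6b. Capitals mark CCAAT and GGGCGG on either strand (ATTGG and CCGCCC on the other).
Actl6b, chr5:137553296-137553360, plus strand: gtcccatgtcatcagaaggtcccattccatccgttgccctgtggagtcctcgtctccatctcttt
Actl6a, chr3:32708296-32708506, plus strand: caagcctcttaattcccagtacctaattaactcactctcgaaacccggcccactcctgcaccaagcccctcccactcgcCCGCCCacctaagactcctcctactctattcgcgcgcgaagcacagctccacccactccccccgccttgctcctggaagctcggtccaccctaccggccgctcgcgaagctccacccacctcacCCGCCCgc
Dpf1, chr7:29303755-29303950, plus strand: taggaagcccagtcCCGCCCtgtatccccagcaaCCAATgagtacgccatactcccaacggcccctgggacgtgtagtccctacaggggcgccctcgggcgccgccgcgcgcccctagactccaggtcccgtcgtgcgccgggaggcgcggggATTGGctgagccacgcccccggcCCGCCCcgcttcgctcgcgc
Dpf2, chr19:5912872-5913121, minus strand: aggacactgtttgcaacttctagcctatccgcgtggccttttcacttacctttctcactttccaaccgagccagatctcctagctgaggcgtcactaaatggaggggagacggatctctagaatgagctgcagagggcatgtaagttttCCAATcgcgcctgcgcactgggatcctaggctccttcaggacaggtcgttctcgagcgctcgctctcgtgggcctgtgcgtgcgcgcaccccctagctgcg

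In the printed stretches, CCAAT occurs 2 times upstream of Dpf1, 1 time upstream of Dpf2 and 0 times upstream of Actl6a and in the shorter stretch of Actl6b. The GC box GGGCGG occurs 2 times upstream of Actl6a and of Dpf1 and 0 times upstream of Actl6b and Dpf2. In windows of 250 bases before a RefSeq transcript start, CCAAT was found in 34.6% and GGGCGG in 57.0% of the 13792 windows of genes in the table. The full window of Actl6b, which reaches into the gene's span, held CCAAT but not GGGCGG. A match is a run of letters, not a measured binding site.

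Actl6b had a mean normalised count of 1560, or 503 per kilobase of its longest transcript, and Actl6a a count of 288, or 143 per kilobase. The neuronal form thus stood 3.52 times higher per length, and 9.84 times higher with the median coding transcript as the length. That median is 508 bases for Actl6b and 922 for Actl6a, below their longest transcripts of 3100 and 2010 bases. The ratio of 9.84 thus depends on short annotated transcripts. Of the exonic bases of Actl6a, 11.6% are shared in GENCODE M21 with Mrpl47 on the opposite strand, so its count is uncertain. In the authors' deposited table the log2 fold change was 0.057 (SE 0.065, unadjusted p = 0.379, DESeq2) for Actl6b and 0.11 (SE 0.091, p = 0.231) for Actl6a. Dpf1 and Dpf2 were nearly equal, at 296 and 283 normalised counts per kilobase (a ratio of 1.05, or 1.55 with the median coding transcript), and Phf10 stood at 139.9. Their log2 fold changes in the authors' deposited table were -0.0054 (SE 0.090) for Dpf1, -0.038 (SE 0.078) for Dpf2 and 0.14 (SE 0.080, p = 0.0788, DESeq2) for Phf10 (chromosome 17, 14944994 to 14961260). Phf10 shares 9.56% of its exonic bases in GENCODE M21 with 1600012H06Rik on the opposite strand, so its count is uncertain too. Ss18l1, the calcium-responsive transactivator CREST, stood at 255 normalised counts per kilobase against 131 for Ss18. In the authors' deposited table Ss18l1 had a log2 fold change of 0.053 (SE 0.065) and Ss18 one of -0.061 (SE 0.080).

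As groups, the 3 neuronal subunits had a median log2 fold change of 0.053 and their 4 general paralogs one of 0.036, a difference of 0.018. Against all 22 general BAF members, with a median of 0.029, the difference was 0.024. With the length trend removed the difference from the paralogs was 8.9e-04. The covariance between genes cannot be had from a table of results, so these differences were not tested. Each of these 7 genes had an interval that overlapped that of its partner. Overlap between genes that are not paralogs was not counted. Pan-neuronal markers had a median log2 fold change of 0.015 over 7 genes (6 above 0). Markers listed for progenitors and immature neurons (Mki67, Top2a, Sox2, Nes, Pax6, Dcx and Sox11) had one of 0.0011 over 7 genes (4 above 0). Of these, Mki67 and Top2a had mean normalised counts of only 66.6 and 70.6, with SEs of 0.25 and 0.19. In bulk cortex, fewer cells of a type and less RNA per cell cannot be told apart.

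**Figure D2:**
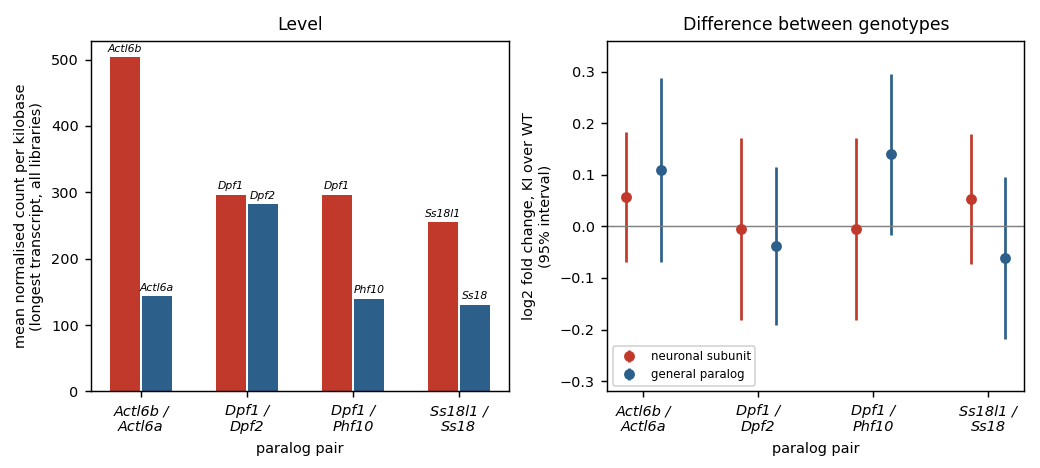
Left, mean normalised count per kilobase of the longest transcript over all libraries (bars from 0) for each neuronal BAF subunit and its general paralog. Right, log2 fold change of KI over WT with its 95% interval for the same genes; Actl6b is 3.52 times the level of Actl6a, whereas all intervals on the right include 0 and overlap within each pair.

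Among the targeting and accessory subunits of BAF, 4 of 5 stood above 0. Bcl7a (chromosome 5, 123344448 to 123374083), an accessory subunit with little known about its biochemical role, had the smallest unadjusted p of all members, 0.0521 (DESeq2), with a log2 fold change of 0.096 (SE 0.049) in the authors' deposited table. Its paralogs Bcl7b and Bcl7c stood at -0.064 (SE 0.076) and 0.090 (SE 0.11) there, so the 3 paralogs did not share a sign. Arid1a and Arid1b, the alternative DNA-binding subunits of canonical BAF whose human counterparts are mutated in Coffin-Siris syndrome, had log2 fold changes of 0.078 (SE 0.081) and 0.088 (SE 0.058) in the authors' deposited table. Per kilobase, Arid1a stood at 344 and Arid1b at 186 normalised counts.

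Arid2, Pbrm1, Brd7 and Brd9, of PBAF or the non-canonical BAF complex, gave values from -0.024 to 0.12. Phf10, also a PBAF subunit, is given above with the paralogs and stood at 0.14 (SE 0.080) in the authors' deposited table. Arid2 (chromosome 15, 96287522 to 96405463), the PBAF counterpart of Arid1a, had the second smallest p of the members, 0.0622 (DESeq2), at a log2 fold change of 0.12 (SE 0.066) in the authors' deposited table. The PBAF bromodomain subunits Pbrm1 and Brd7 stood at 0.037 (SE 0.076) and 0.012 (SE 0.064), and Brd9 of non-canonical BAF at -0.024 (SE 0.12), in the same authors' deposited table.

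The ISWI ATPases stood on opposite sides of 0. Smarca5 (SNF2H) had a log2 fold change of -0.059 (SE 0.063, unadjusted p = 0.349, DESeq2) and Smarca1 (SNF2L), the form typical of differentiated neurons, one of 0.076 (SE 0.067, p = 0.256), in the authors' deposited table. Smarca5 was the more abundant, with 265 against 153 normalised counts per kilobase. Their partner subunits, which direct the ATPase to chromatin, were 5 above 0 and 2 below. Cecr2 (chromosome 6, 120666314 to 120771191), a bromodomain partner known for its part in neural tube closure, had the largest value of all members, 0.27, but with an SE of 0.18 (p = 0.137, DESeq2) and a mean normalised count of 91.0 in the authors' deposited table. The lowest, Baz1a at -0.12, had an SE of 0.27 and a count of 88.3 there. The more abundant partners were closer to 0 in the authors' deposited table, with Bptf of the NURF complex at 0.091 (SE 0.099), Baz1b, the Williams syndrome transcription factor, at -0.054 (SE 0.058) and Rsf1 at 0.068 (SE 0.085). Baz2a and Baz2b stood at 0.066 (SE 0.19) and 0.072 (SE 0.12) there.

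In the INO80 family, Ino80 had the highest value of the 3 ATPases, a log2 fold change of 0.17 (SE 0.11, unadjusted p = 0.112, DESeq2) in the authors' deposited table. The H2A.Z depositing enzymes Srcap and Ep400 stood at -0.012 (SE 0.12) and 0.013 (SE 0.10) there. For Srcap, 61.7% of exonic bases are shared in GENCODE M21 with another gene model on the same strand, Gm42715, so its count is uncertain. The AAA+ ATPases Ruvbl1 and Ruvbl2, which form a joint ring in these complexes, had log2 fold changes of 0.099 (SE 0.064, p = 0.126, DESeq2) and -0.057 (SE 0.11) in the authors' deposited table. Ruvbl2 shares 10.7% of its exonic bases with Gys1 on the opposite strand. Ino80b stood at 0.0083 (SE 0.10) and Ino80c at 0.13 (SE 0.089) there, the latter with an unadjusted p of 0.144 (DESeq2).

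All 5 of the remaining SNF2 enzymes stood above 0, and none passed. Atrx, the X-linked enzyme that deposits histone H3.3 at heterochromatin and is mutated in the ATR-X intellectual disability syndrome, had a count of 4443 and a log2 fold change of 0.11 (SE 0.092, unadjusted p = 0.216, DESeq2) in the authors' deposited table. Smarcad1 stood at 0.094 (SE 0.081), the transcription-coupled repair factor Ercc6 at 0.075 (SE 0.11) and the replication fork annealing helicase Smarcal1 at 0.014 (SE 0.060) in the authors' deposited table. Hells, which supports DNA methylation in dividing cells, was the least expressed member, with a mean normalised count of 43.4 (7.39 per kilobase) and a log2 fold change of 0.14 (SE 0.23). Over the 12 SNF2-type ATPases among the members the median log2 fold change was 0.044, with 8 above 0, and over the 34 other members, Ruvbl1 and Ruvbl2 included, it was 0.055, with 24 above 0.

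**Figure D3:**
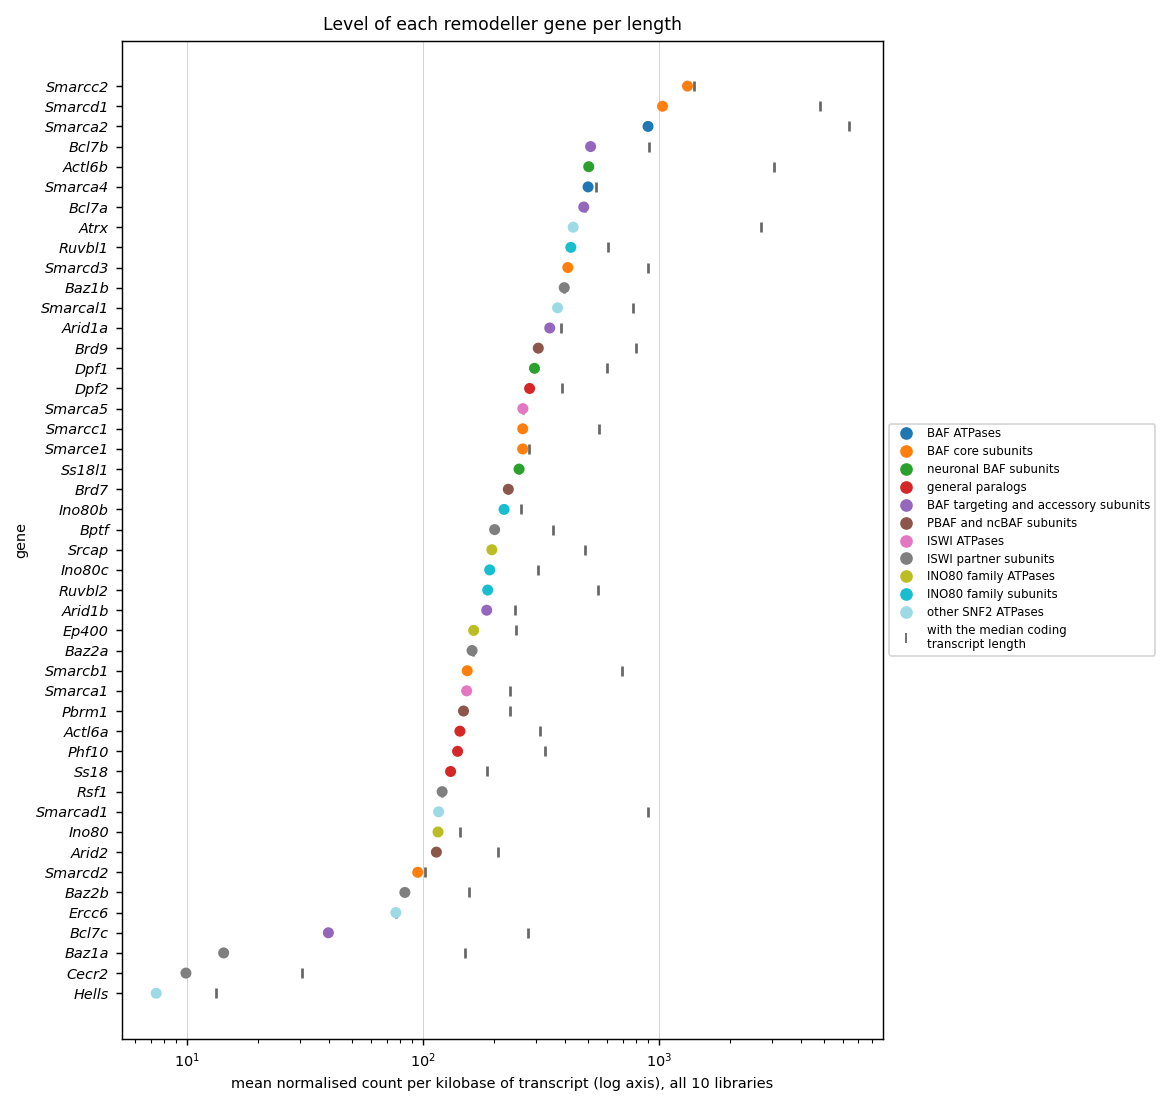
Mean normalised count per kilobase over all 10 libraries (x axis, log scale) for each of the 46 members, ordered by level, with the longest transcript as length (coloured points) and with the median coding transcript (grey ticks). With the longest transcript, Smarcc2 is highest at 1319 and Hells lowest at 7.39. The ticks show that the choice of transcript moves some genes several-fold.

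Paralogs that fill the same role were set side by side. In all 18 paralog pairs examined the 95% intervals of the partners overlapped, and the differences in log2 fold change were at most 0.16 (Bcl7a against Bcl7b). The signs were shared in 10 pairs and opposite in 8. These differences were not tested. Some genes enter more than 1 pair, so the pairs are not separate observations. How often the intervals of genes that are not paralogs overlap was not counted. Levels differed far more than changes did, from a ratio of 0.578 (Smarca1 over Smarca5) to 27.8 (Baz1b over Baz1a) per kilobase of the longest transcript. With the median coding transcript as the length the ratios ran from 0.536 (Bcl7a over Bcl7b) to 47.0 (Smarcd1 over Smarcd2). On that length Smarca1 over Smarca5 stood at 0.880 and Baz1b over Baz1a at 2.64. The median coding transcript of Smarcd1 is 712 bases, against a longest one of 3307.

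Further genes of the same pathways, taken from 6 lists of 61 non-members, gave 56 genes in the table, of which 33 were above 0. Without Chd8, 0 of 55 passed an adjusted p of 0.05 (DESeq2), 2 were under an unadjusted p of 0.05 (3.22% of all genes were), and the median log2 fold change was 0.012. Those 2 were Uchl5, the deubiquitinase of INO80 and the proteasome, at -0.21 (SE 0.082, unadjusted p = 0.0089), and the NuRD enzyme Chd3 at 0.10 (SE 0.044, p = 0.0215), in the authors' deposited table. Of the 25 further INO80, SRCAP and TIP60 subunits, 15 were above 0 (median 0.0073), and the smallest p on that side was that of the actin-related Actr5, at 0.14 (SE 0.11) in the authors' deposited table. Further BAF partners had 3 of 5 above 0 (median 0.011), with Bicral at 0.098 (SE 0.099) and Bcl11a at -0.051 (SE 0.043) in the authors' deposited table. Further ISWI partners had 2 of 6 above 0 (median -0.0067), with Hmgxb4 at 0.089 (SE 0.077) and 0610010K14Rik (Bap18) at -0.093 (SE 0.088) there. Further SNF2 ATPases had 3 of 7 above 0 (median -0.050), with Btaf1 at 0.066 (SE 0.11) and Ercc6l2 at -0.15 (SE 0.097) in the authors' deposited table. Partners of ATRX and HELLS had 2 of 3 above 0, with Daxx at 0.070 (SE 0.10) and H3f3a at -0.017 (SE 0.087) there. The CHD family had 8 of 10 above 0, 1 of them (Chd8) past the threshold, and its lowest value was that of Chd1, -0.044 (SE 0.080), in the authors' deposited table.

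Remodeller transcripts are long, and fold changes in the table moved with length. The longest transcript had a median of 5470.5 bases over the 46 members and 3565 bases over all genes tested. The Spearman correlation of the Wald score with this length was 0.248 over 13098 genes and 0.104 over the 46 members, which share the same libraries and are not independent. Genes were split by length into the longest, middle and shortest of 3 equal parts. In the longest part (4453 bases and more), 19 of 28 members (median 0.070) were above 0, against 64.0% of genes with a median of 0.023. In the middle part 8 of 11 members (median 0.014) were above 0, against 50.3% of genes with a median of 4.1e-04. In the shortest part 5 of 7 members (median 0.089) were above 0, against 39.6% of genes with a median of -0.020. The part of transcript length in the members' values was not tested.

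**Figure D4:**
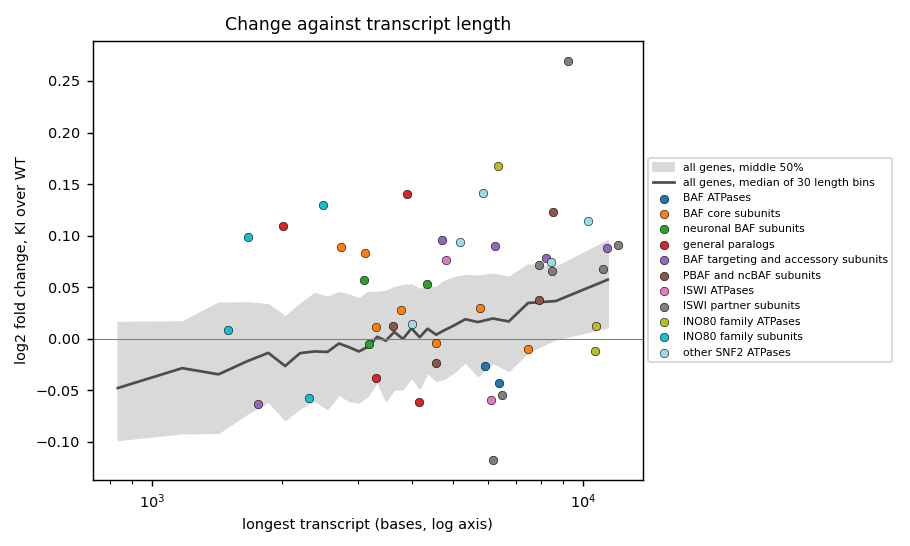
Log2 fold change of KI over WT (y axis) against the longest transcript (x axis, log scale) for the 46 members (points, coloured by role), over the median (line) and middle 50% (grey band) of all genes in 30 bins of length. The line rises with length, and the members scatter on both sides of the line.

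Markers of neighbouring tissue and of other cell types were read from the same table. The lists were drawn up with earlier results of these data known, so their counts and medians are descriptions, not independent evidence. The thalamic markers Tcf7l2, Prkcd, Tnnt1 and Ramp3 and the meningeal marker Igf2 are themselves among the 10 calls over all genes. Thalamic markers had 6 of 8 genes below 0 (median -0.44, 4 past the threshold), meningeal markers 8 of 8 (median -0.26, 1 past it), choroid plexus markers 5 of 5 (median -0.33, 0 past it and 4 of 5 at an unadjusted p under 0.05, DESeq2) and mature oligodendrocyte markers 8 of 8 (median -0.074, 0 past it and 2 under 0.05). Striatal markers had 6 of 6 below 0 (median -0.11) and inhibitory neuron markers 5 of 6 (median -0.059), with 0 past the threshold and 0 under an unadjusted p of 0.05 in both (DESeq2). Cortical excitatory neuron markers had 5 of 6 above 0 (median 0.053, 0 past the threshold and 1 under 0.05). Astrocyte markers had 3 of 6 above 0 (median -0.0038, 0 past the threshold and 1 under 0.05). Microglial markers had 2 of 6 above 0 (median -0.0055) and endothelial markers 2 of 4 (median -0.014), with 0 under 0.05 in both. Over all genes, 0.0732% passed the threshold and 3.22% were under an unadjusted p of 0.05 (DESeq2). Summed levels per genotype were not analysed here, and the part of these tissues in the remodeller values was not tested.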

How the data were processed

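Cortical poly(A) RNA of 10 male mice (5 WT, 5 KI, grouped by sample title) was sequenced. The p-values are from the authors' test of KI against WT, with the variation estimated only from these samples. Per the submitters' processing notes the tools were Trimmomatic 0.39, HISAT2 2.1.0, featureCounts 2.0.0 and DESeq2 1.26.0, with genome build mm10; their settings are not stated. Per the file headers, the deposited table gives the mean normalised count (a signal scaled by the authors), the KI-WT log2 fold change and its standard error (log2), the Wald score and the p-value with its adjusted value. No model was refitted, so calls are the authors' DESeq2 calls at an adjusted p of 0.05. The adjusted p-values equalled a Benjamini-Hochberg adjustment over 13660 genes.

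Symbols, positions and promoters came from RefSeq (GRCm38.p6), which named 13497 genes. It held upstream windows for 38 of the 46 members. Transcript lengths came from GENCODE M21 (13098 genes). Intervals are 95% normal intervals. The length trend was removed with lowess (fraction 0.3, statsmodels 0.14.6). Calling and trend removal were tested on simulated data. Members and lists were chosen with earlier results of these data known. Genes with values were the neuronal BAF subunits and paralogs, the ATPases, the 5 smallest p per direction, the extremes of change and level, and the smallest p per direction of each further list; the remaining members were added after their values were seen, so that every member is given. Paralog pairs beyond the neuronal ones, and Chd3, were also chosen then. The cortical marker list is given without 1 gene that is not reported here. Alternatives were other thresholds, count minimums, scaling of scores, length correction and transcript choice.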

Additional observations from a re-analysis of the deposited data

How the results depend on the processing

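The count of members past an adjusted p stayed 0 at thresholds of 0.1 and 0.01, with adjustment over genes with a mean count of at least 50 or 200, and with Wald scores divided by their robust SD, while over all genes the last setting gave 23 calls and a threshold of 0.01 gave 6, against 10. With scores so divided, 3 members (Bcl7a, Arid2 and Phf10) had an unadjusted p under 0.05, or 6.52% against 6.21% of all genes; with the length trend removed there were 0. The members' median of 0.055 became 0.031 as a weighted mean and 0.032 with the length trend removed. The neuronal minus paralog difference of 0.018 became 0.010 as a weighted mean and 8.9e-04 with the length trend removed. The Actl6b to Actl6a ratio of 3.52 became 9.84 with the median coding transcript, which is only 508 bases for Actl6b and 922 for Actl6a. The causes of these shifts were not tested. No paired analysis was possible because the deposited values are results of 1 fit, with no column per library; leaving out a replicate could not be done for the same reason. SEs from 0.034 to 0.27 limit what each member can show.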

Other observations

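Windows before transcript starts of the remodeller genes were rich in CpG. Over 41 windows of 250 bases before a RefSeq transcript start, from 38 members (21 windows reach into the gene's own span, which can begin at another transcript), the median ratio of observed to expected CpG was 0.891 and the median GC content 67.2%, beside 0.708 and 60.0% over the 13792 windows of genes in the table. The GC box GGGCGG was found on either strand in 78.0% of the members' windows against 57.0% of all windows, and CCAAT in 26.8% against 34.6%. The ratio was 0.735 for Actl6b, 0.976 for Dpf1 and 1.04 for Ss18l1 among the neuronal subunits, and 1.05 for Actl6a, 0.835 for Dpf2 and 1.10 for Phf10 among their paralogs. The lowest member was Smarcd2 at 0.201. These are descriptions of the sequence, and no test was made. For 36 of the 41 windows, the 30 bases after the start lay in a GENCODE M21 transcript of the gene. The window of Ss18l1 was not among those 36.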
